A study of Mus musculus with 12 samples.

Results

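The genes described here encode cohesin, condensin and the SMC5/6 complex, together with the factors that load, acetylate, protect, cleave and remove cohesin. They were taken from a list of 37 gene symbols by keeping every symbol with its own row in the deposited table. 36 of the 37 had a row, out of 24054 genes in the table, and all 36 were among the 14876 genes with enough counts to be tested. Sgol2a had no row under that symbol and is left out of every count below. The list was drawn up by function and not by a cut on measured values, but with earlier results of these data known.

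Structural maintenance of chromosomes (SMC) proteins are long coiled ATPases that pair up and, closed by a kleisin subunit, form rings or clamps on DNA. Cohesin holds sister chromatids together from replication until anaphase, and in interphase it extrudes chromatin loops that often stop where CTCF is bound. Condensin compacts chromosomes for mitosis, with condensin II resident in the nucleus through the cycle and condensin I reaching chromosomes after the nuclear envelope breaks down. The SMC5/6 complex, which carries SUMO and ubiquitin ligase subunits, acts in replication stress and in recombination repair, where the BLM helicase also works. Transcripts of many of these genes, and of most condensin genes, are higher in dividing cells.

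Polyadenylated RNA was sequenced from primary fibroblasts of mouse embryos, connective tissue cells that were kept in culture at 3% O2 with 10% fetal bovine serum. Each genotype was represented by 3 libraries: wild type (WT), Blm knockout (Blm KO), Recql knockout (Recql KO) and the knockout of both genes (double KO). BLM and RECQL are both RecQ-family DNA helicases. The alleles, the strain, the passage and the number of embryos behind the 12 libraries are not given in the sources used here, so the p-values measure the spread between these libraries, which may in part be technical.

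The libraries held between 47758552 and 59296354 expected counts, and the 36 genes took between 0.233% and 0.339% of them. Levels are CPM, counts relative to the library total, after TMM scaling, and ± is the SD over the 3 libraries of a genotype. Blm was at 20.8 ± 1.85 CPM in WT, 4.13 ± 1.32 for Blm KO, 15.6 ± 1.14 for Recql KO and 5.5 ± 1.57 for double KO. The Recql KO libraries all lay below WT for Blm, a difference that was not called (edgeR adjusted p 0.197). Recql was at 27.7 ± 1.86 CPM in WT, 25.3 ± 4.16 with the Recql KO label and 26.4 ± 8.56 for double KO. Its level therefore did not check the Recql label, whether the counted reads lie in the deleted part is not given, and every direction given for Recql KO below rests on the label. All 10 fibroblast marker genes were detected, at a summed 24280 to 25800 CPM in WT, 29210 to 37150 for Blm KO, 12560 to 16110 for Recql KO and 29410 to 33630 for double KO, while no summed list of endothelial, blood, epithelial, neural or germ cell markers passed 69.5 CPM in any library, with the blood marker Hbb-bs at 0 counts in all 12. Neural markers summed to 26.5 to 49.3 CPM over the WT libraries, 13.3 to 14.6 in those of Blm KO, 61.2 to 69.5 in those of Recql KO and 19.0 to 44.7 in those of double KO. Endothelial markers summed to 12.2 to 20.2, 3.27 to 11.4, 3.08 to 4.49 and 10.5 to 15.1 CPM in that order, and epithelial markers to 23.3 to 46.2, 15.1 to 20.9, 9.49 to 14.6 and 16 to 37.1. In Recql KO against WT, 3 of 5 endothelial, 2 of 5 epithelial and 2 of 5 blood markers tested were called lower. Of 10 fibroblast markers 3 were called lower and 1 higher. Of 5 neural markers 1 was called each way, and of 3 germ cell markers 1 was called lower. Among all genes tested 15.6% were called lower and 14.2% higher. The interaction was called above 0 for 3 of 5 endothelial, 2 of 5 epithelial and 2 of 10 fibroblast markers, beside 5.86% of all genes. It was called for no blood, neural or germ cell marker. The summed level of 16 proliferation markers moved with several of the results below: it was 1668 to 1962 CPM in WT, 1004 to 1297 for Blm KO, 949.3 to 1263 for Recql KO, and 1450, 2146 and 1094 in double KO replicates 1, 2 and 3. A list of 14 S phase markers was not lower in Recql KO. It summed to 773.8 to 986.4 CPM in WT, 530.5 to 613.4 for Blm KO, 821.1 to 927.4 for Recql KO and 571.3 to 990.1 for double KO. In Recql KO against WT its median log2 fold change was 0.07, beside -0.71 for the proliferation markers. Y-linked transcripts were high in the 3 WT libraries, Blm KO replicate 1, Recql KO replicate 1 and double KO replicate 2 (the Y-high libraries) and low or intermediate in the others. Xist, the RNA of X inactivation, went the other way, at 0.111 to 11.7 CPM in the Y-high libraries and 310 to 473 in the others. Recql KO replicate 2, with Xist at 310 CPM, had an intermediate Y-linked sum of 28.7 CPM. Each comparison with WT is therefore partly confounded with this difference, also for the X-linked genes Smc1a, Stag2 and Hdac8. The part of fibroblast and other cell type markers and of proliferation in any result below was not tested. Fits with the Y-linked level as a term, or with the Y-high libraries alone, are given beside some of the results they change. In bulk RNA, fewer cycling cells and less transcript per cell cannot be told apart.

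Against WT, the libraries labelled Recql KO had 8 of the 36 genes called changed (22.2%), 7 lower and 1 higher, where 29.9% of all genes tested were called, 15.6% lower and 14.2% higher. The share among these genes was no higher than in the whole table. The 7 that fell were Smc4, Ncapd2 and Ncaph2 of condensin, the cohesin kleisin Rad21, the protease gene Espl1, and Nsmce1 and Ndnl2 of the SMC5/6 complex, and the 1 that rose was Pttg1. A call is an adjusted p under 0.05 in edgeR's quasi-likelihood test with Benjamini-Hochberg adjustment over all genes tested. The log2 fold changes of the 36 genes had a median of -0.19 with 29 below 0, against a median of -0.01 over all genes tested. At an unadjusted p under 0.05 there were 11 of the 36, beside 42.2% of all genes, and the libraries of Recql KO and WT did not overlap for 15, beside 49.3% of all genes. In a fit of the libraries with high Y-linked transcripts alone, with 1 library for each KO genotype, the count was 5 (Smc4, Ncapd2, Espl1, Ncaph and Ncapg, all lower) beside 7.39% of all genes, so Rad21, Pttg1, Ncaph2, Nsmce1 and Ndnl2 lost their calls. Their log2 fold changes in that fit were -0.61, 0.49, -0.39, -0.22 and -0.28, in that order, each on the same side of 0 as with all libraries.

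Blm KO gave no call against WT among the 36 genes, where 0.753% of all genes tested were called. At an unadjusted p under 0.05 edgeR had 19 of them, 18 lower and 1 higher, against 18.9% of all genes tested (9.74% lower), and DESeq2 called 6 after adjustment (Smc2, Smc4, Ncapd2, Ncapg, Ncapg2 and Dscc1, all lower) against 6.49% of all genes. The WT and Blm KO libraries did not overlap for 21 of the 36 genes, 20 of them lower in Blm KO, where 24.8% of all genes tested did not overlap (12.1% lower). The median log2 fold change was -0.26, with 30 genes below 0, beside 0.01 over all genes tested. After a Y-linked term was added to the edgeR fit, 7 of the 36 had an unadjusted p under 0.05, beside 11.1% of all genes. The median was then -0.17 with 29 genes below 0. In the Y-high libraries alone, with 1 Blm KO library, the median was -0.20 with 27 genes below 0.

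Double KO gave no call either against WT, by edgeR or DESeq2, where edgeR called 0.121% of all genes tested. At an unadjusted p under 0.05 edgeR had 0 of the 36 genes against 10.8% of all genes tested, and DESeq2 had 1. For 4 genes (Stag1, Dscc1, Ncaph2 and Nsmce1) all double KO libraries lay below all WT libraries, as for 6.82% of all genes tested. The median log2 fold change was -0.14 with 32 genes below 0, and the median over all genes tested was 0.01. After a Y-linked term was added to the fit, the median of the 36 was -0.07 with 29 genes below 0. In the Y-high libraries alone, with 1 double KO library, it was 0.04 with 15 genes below 0, beside -0.02 over all genes. The 3 comparisons with WT share the 3 WT libraries, so their values stand side by side and are not independent of each other.

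**Figure D1:**
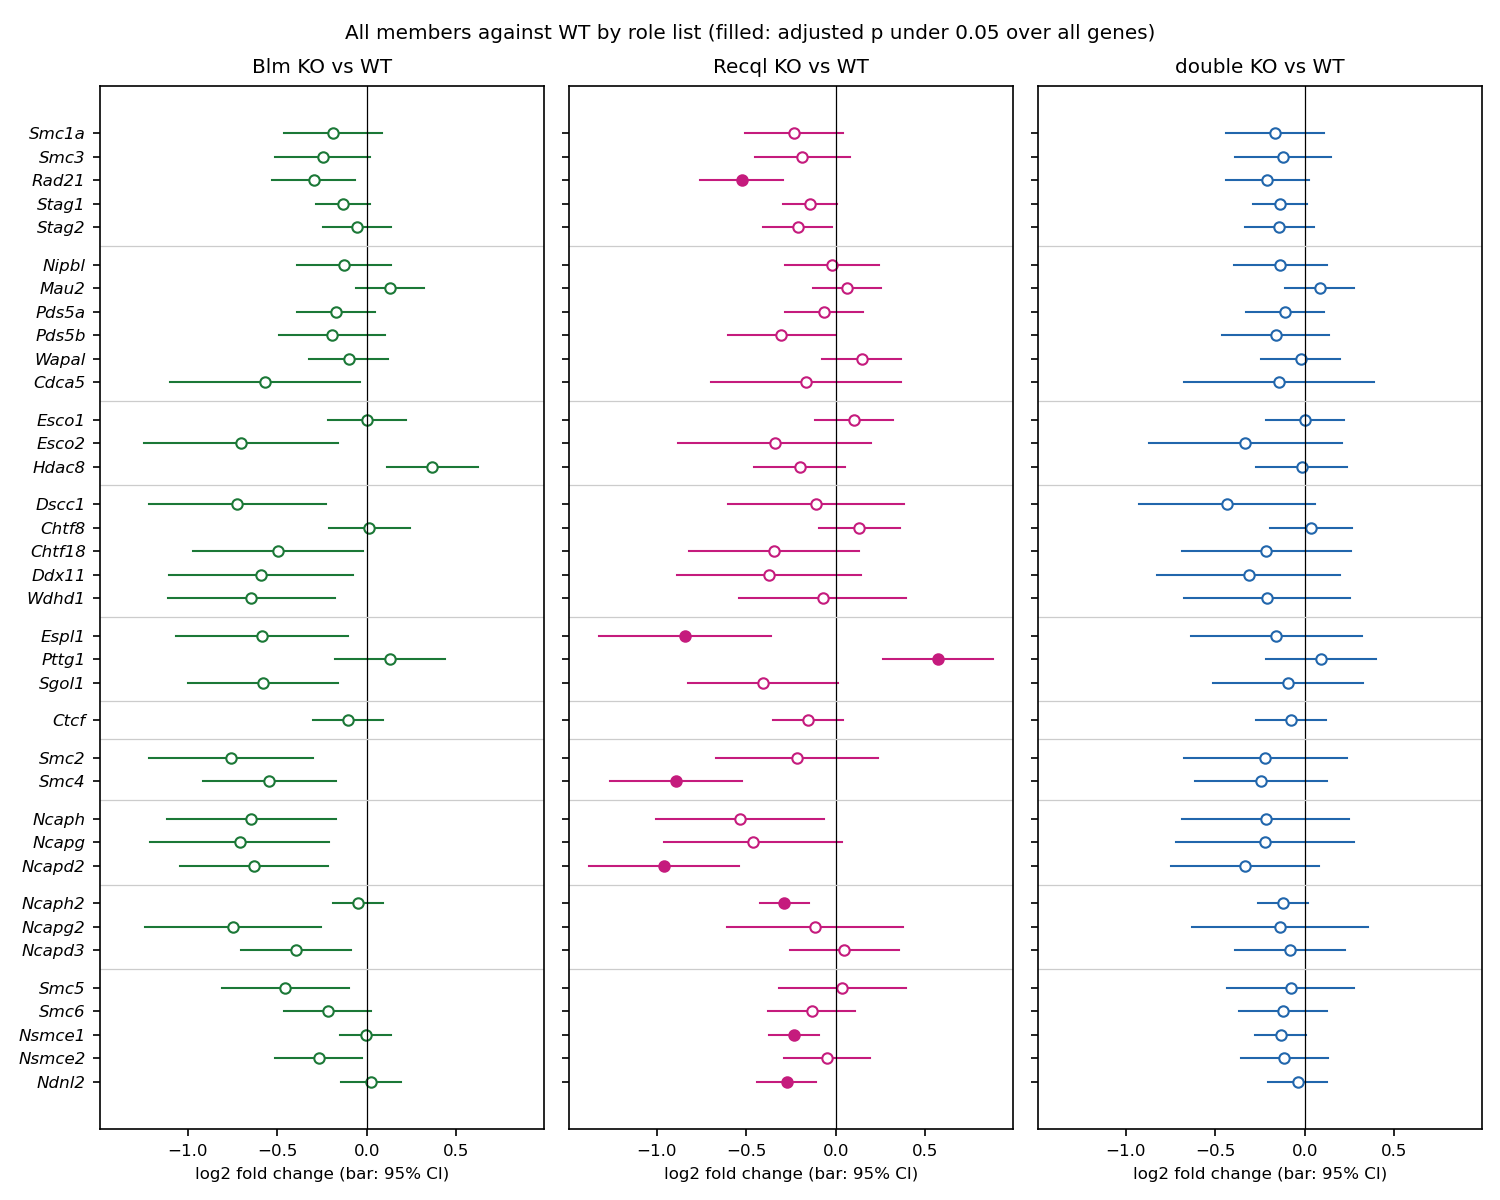
Log2 fold change against WT (x axis) of each of the 36 genes (y axis, grouped by role) in Blm KO, the libraries labelled Recql KO and double KO, with 95% confidence intervals from edgeR and filled symbols for called genes. The condensin genes lie to the left of 0 in Blm KO, the 8 called genes are all in Recql KO, and every double KO interval covers 0.

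In the core cohesin ring, Rad21, the kleisin that separase cuts, fell in the libraries labelled Recql KO. Its level was 257, 244.5 and 237 CPM over the WT libraries, 224, 183 and 194 in those of Blm KO, 161, 174 and 178 in those of Recql KO, and 213, 241 and 185 in those of double KO. Every Recql KO library lay below every library of WT, Blm KO and double KO. The log2 fold change was -0.53 (SE 0.10, adjusted p 0.0049), a 1.44-fold lower level. In Blm KO the libraries also lay below WT, with a log2 fold change of -0.30 that was not called (adjusted p 0.174), and double KO overlapped WT.

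The ring's other subunits did not pass the test in any comparison. Smc1a and Smc3, which form the ATPase pair, were at 170 ± 26.2 and 137 ± 22.3 CPM in WT and between 84.3% and 91.9% of that in the 3 KO genotypes. Stag1 and Stag2, alternative subunits that bind the ring to chromatin and to CTCF, were at 130 ± 2.78 and 208 ± 23.9 CPM in WT. Stag2, an X-linked gene, was at 86.3% of WT in Recql KO, with a log2 fold change of -0.21 (adjusted p 0.0874). Stag1 varied little: its double KO libraries were at 120, 120 and 117 CPM and all lay below the WT libraries at 132, 127 and 132, yet the log2 fold change of -0.14 gave an adjusted p of 0.512.

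Among the genes for loading, maintenance and release no member was called in any comparison. Nipbl and Mau2, the cohesin loader, stayed close to WT in all KO genotypes, at 91.0% to 98.6% for Nipbl and 104.5% to 109.4% for Mau2. Pds5a, Pds5b and Wapal, which regulate release of cohesin from DNA, ranged from 81.1% to 110.5% of WT. Cdca5, also called sororin, which protects cohesin from release by WAPL and is itself a cell cycle gene, had the smallest unadjusted p of this list. It was at 6.95, 11.5 and 8.0 CPM over the WT libraries, 6.92, 5.38 and 5.52 in those of Blm KO, 6.25, 8.06 and 9.24 in those of Recql KO, and 8.0, 10.1 and 5.81 in those of double KO. The Blm KO libraries lay just below the lowest WT library, with a log2 fold change of -0.57 (SE 0.24, adjusted p 0.241).

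The acetylation cycle of cohesin showed different values for its writers and its eraser in Blm KO, with none called. Hdac8, the X-linked deacetylase that recycles SMC3, was at 8.87, 10.0 and 11.0 CPM over the WT libraries, 13.9, 11.6 and 13.0 in those of Blm KO, 8.19, 8.40 and 9.40 in those of Recql KO, and 9.88, 9.03 and 10.6 in those of double KO. It was the only gene of the 36 whose Blm KO libraries all lay above WT, by 0.37 on the log2 scale (SE 0.12, adjusted p 0.141), and the double KO libraries lay back in the WT range. Esco2, the acetyltransferase that works with replication forks, was at 18.5 ± 2.25 CPM in WT against 11.4 ± 2.57 for Blm KO, with an adjusted p of 0.173. Esco1, its interphase relative, stayed between 100.1% and 107.2% of WT.

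The genes that couple cohesion to the replication fork also gave no call with edgeR. Dscc1, part of the alternative clamp loader with Chtf18 and Chtf8, was the lowest of all 36 genes in level, at 67 to 145 counts a library. Its level was 2.53, 2.51 and 2.29 CPM over the WT libraries, 2.07, 1.18 and 1.19 in those of Blm KO, 2.19, 2.38 and 2.23 in those of Recql KO, and 1.89, 1.93 and 1.61 in those of double KO. All Blm KO and double KO libraries lay below WT, with log2 fold changes of -0.72 (SE 0.22, adjusted p 0.137) and -0.43 (SE 0.22, adjusted p 0.525). Wdhd1, a hub of the replisome, and the helicase gene Ddx11 were at 64.0% and 66.5% of WT in Blm KO, with adjusted p of 0.154 and 0.214. Chtf8 was at 101% to 109.6% of WT in the 3 KO genotypes.

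Separase and securin moved in opposite directions in the libraries labelled Recql KO. Espl1 encodes separase, the protease that cuts RAD21 at anaphase. It was at 17.1, 24.1 and 20.8 CPM over the WT libraries, 15.6, 12.7 and 13.0 in those of Blm KO, 8.91, 11.9 and 13.8 in those of Recql KO, and 18.7, 23.4 and 13.4 in those of double KO. Both single KO genotypes lay below all WT libraries, and the double KO libraries overlapped those of WT, Blm KO and Recql KO. The log2 fold change was -0.84 in Recql KO (SE 0.22, adjusted p 0.0161), and -0.58 in Blm KO, not called (adjusted p 0.192). The Recql KO call was lost without WT replicate 2 or without Recql KO replicate 1 or 2, with adjusted p up to 0.0642, and once the Y-linked level was a covariate.

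Pttg1 encodes securin, the inhibitor that keeps separase in check until anaphase. Its level was 8.98, 11.9 and 12.1 CPM over the WT libraries, 10.7, 12.9 and 12.5 in those of Blm KO, 15.5, 16.5 and 16.9 in those of Recql KO, and 13.1, 9.96 and 12 in those of double KO. The Recql KO libraries lay above all other libraries, by 0.57 on the log2 scale from WT (SE 0.14, adjusted p 0.0123). The ratio of Espl1 to Pttg1 CPM was 1.88 ± 0.148 for WT, 1.16 ± 0.258 for Blm KO, 0.704 ± 0.122 for Recql KO and 1.63 ± 0.643 for double KO. This ratio, like those of the condensin genes, was picked after the values were seen and carries no test. Sgol1, a protector of centromeric cohesin, was at 23.2 ± 2.88 CPM in WT, 15.5 ± 1.87 for Blm KO and 17.5 ± 2.07 for Recql KO, without a call (adjusted p 0.153 and 0.131). Sgol2, the older symbol of the other shugoshin in the RefSeq gene table, has a row of its own that the list did not name, and it stood at 47.4 ± 2.46, 30.2 ± 2.46, 33.5 ± 4.99 and 38.5 ± 12.3 CPM (WT first, then the Blm, Recql and double KO means), called in no comparison.

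Ctcf, which encodes the DNA-binding protein at loop anchors, varied little. It was at 112, 101 and 96.0 CPM over the WT libraries, 106, 86.7 and 93.8 in those of Blm KO, 96.9, 91.1 and 88.5 in those of Recql KO, and 96.2, 104 and 91.9 in those of double KO. All 4 genotypes overlapped, and the smallest unadjusted p against WT was 0.108, in Recql KO.

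The condensin genes held the largest log2 fold changes of the 36 against WT in both single KO genotypes. Smc2 and Smc4 form the ATPase pair shared by both condensins, and Smc4 fell in Recql KO. Smc4 was at 256, 228 and 205.5 CPM over the WT libraries, 183, 137 and 153 in those of Blm KO, 119.5, 120 and 132 in those of Recql KO, and 185, 246.5 and 150 in those of double KO. Every Recql KO library lay below every other library, and both single KO genotypes lay below WT. The Recql KO difference was -0.89 on the log2 scale (SE 0.17, adjusted p 0.00374), a 1.86-fold lower level, and the Blm KO difference was -0.54 (SE 0.17, adjusted p 0.136).

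Its partner Smc2 had another order. It was at 135, 142 and 116 CPM over the WT libraries, 84.8, 76.4 and 71.7 in those of Blm KO, 104, 114 and 121 in those of Recql KO, and 104, 157 and 76.8 in those of double KO. The Blm KO libraries lay below WT and Recql KO, whereas Recql KO overlapped WT. Smc2 had the largest drop of the 36 in Blm KO, -0.76 on the log2 scale (SE 0.21), which was not called by edgeR in the fit of all libraries (adjusted p 0.115) but was by DESeq2 (adjusted p 0.0143). In Recql KO the value was -0.22 (95% interval -0.67 to 0.24). The ratio of Smc4 to Smc2 CPM was 1.76 ± 0.144 for WT, 2.03 ± 0.200 for Blm KO, 1.10 ± 0.0470 for Recql KO and 1.77 ± 0.191 for double KO, so the 3 Recql KO libraries stood below all 9 others.

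**Figure D2:**
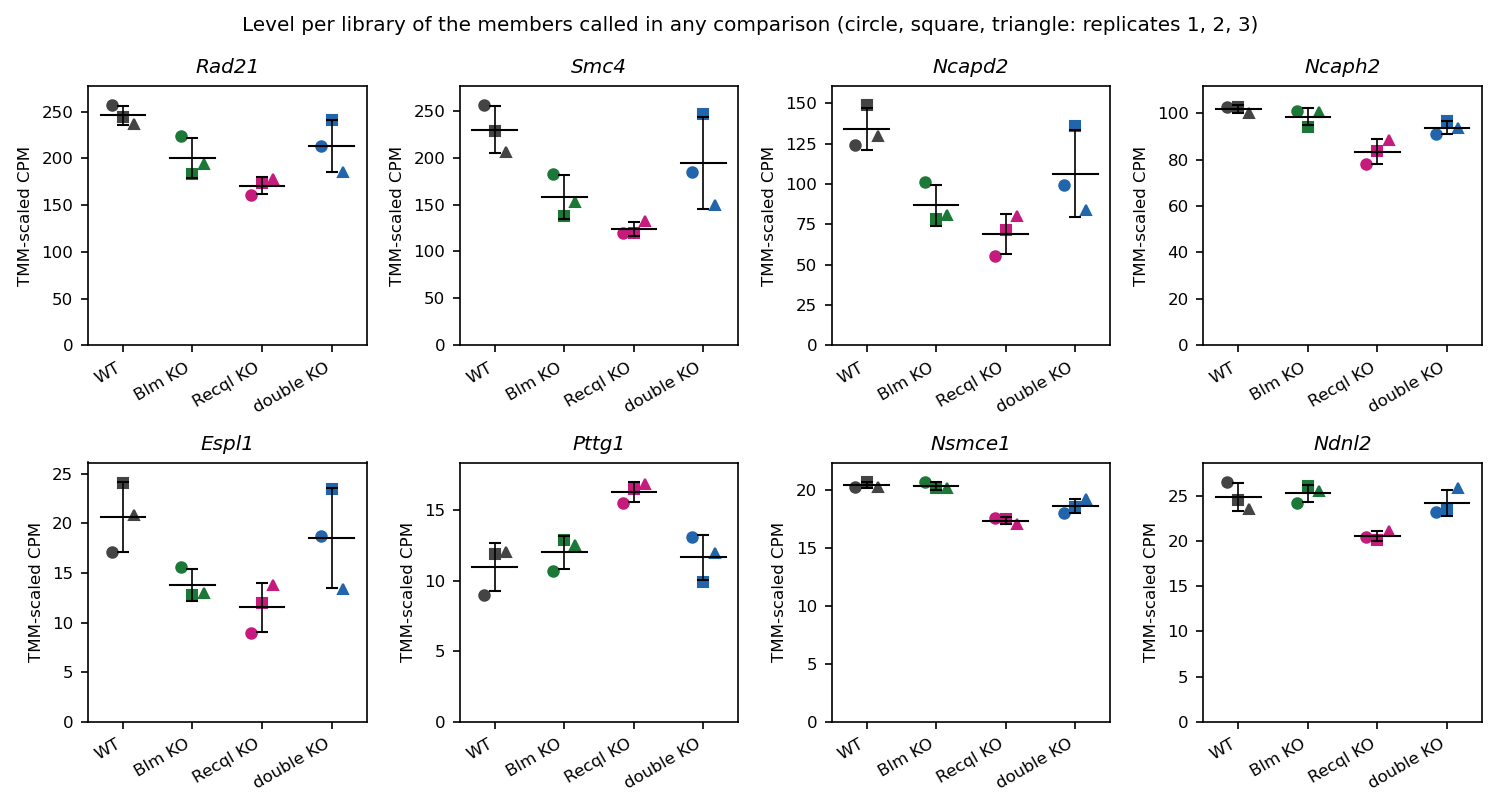
Level in each library (y axis, TMM-scaled CPM from 0) of the 8 genes called in at least 1 comparison, by genotype (x axis), with the mean as a bar and the SD as whiskers. In Recql KO, 7 genes sit below the WT libraries and Pttg1 sits above them, and the double KO points of Smc4, Ncapd2 and Espl1 are spread widely.

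In condensin I, Ncapd2, a HEAT-repeat subunit, fell in Recql KO. Its level was 124, 149 and 129.5 CPM over the WT libraries, 101, 78.5 and 80.7 in those of Blm KO, 55.5, 71.3 and 80.2 in those of Recql KO, and 99.5, 136 and 83.6 in those of double KO. Both single KO genotypes lay below all WT libraries. The difference was -0.96 on the log2 scale in Recql KO (SE 0.19, adjusted p 0.00472), a 1.94-fold lower level and the largest of the 36 genes in that comparison. In Blm KO it was -0.63 (SE 0.19, adjusted p 0.133). Ncapd2 lies 17.16 Mb from Recql on chromosome 6 (mm10), where 55 of 180 tested genes within 20 Mb of Recql (30.6%) were called, a share close to that of all genes.

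The kleisin Ncaph and the HEAT-repeat subunit Ncapg of condensin I went the same way without a call. Ncaph was at 39.5 ± 1.27 CPM in WT, 25.3 ± 4.50 for Blm KO and 27.3 ± 6.38 for Recql KO (adjusted p 0.155 and 0.0805). Ncapg was at 51.3 ± 4.99, 31.4 ± 4.35 and 37.2 ± 6.69 CPM in the same genotypes (adjusted p 0.144 and 0.143). Exons of Lcorl on the other strand cover 20.8% of the exon bases of Ncapg, and whether counting used the strand is not given.

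Condensin II was uneven. Its kleisin Ncaph2 was at 103, 103 and 99.9 CPM over the WT libraries, 101, 94.1 and 100 in those of Blm KO, 78.0, 83.7 and 88.6 in those of Recql KO, and 90.9, 96.5 and 93.5 in those of double KO. The Recql KO libraries lay below all others, and the difference from WT was -0.29 on the log2 scale (SE 0.06, adjusted p 0.00759). Exons of Sco2 and Tymp on the other strand cover 25% and 16.1% of the exon bases of Ncaph2. Ncapg2 was at 63.6 ± 6.84 CPM in WT against 37.9 ± 5.55 for Blm KO, 59.6% of WT (adjusted p 0.134), but at 92.4% of WT in Recql KO. Ncapd3 was at 39.1 ± 3.07 CPM in WT, 29.7 ± 1.87 for Blm KO and 40.4 ± 3.25 for Recql KO.

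Over the 8 condensin genes, the median log2 fold change was -0.64 in Blm KO with 0 called, -0.38 in Recql KO with 3 called lower (15.6% of all genes tested were), and -0.22 in double KO with 0 called. The lowest values were those of Smc2, Ncapg2 and Ncapg in Blm KO and those of Ncapd2 and Smc4 in Recql KO, and the 2 genotypes were not tested against each other. Ncapd2 to Ncapd3 was 3.44 ± 0.317 for WT, 2.91 ± 0.250 for Blm KO, 1.70 ± 0.217 for Recql KO and 2.87 ± 0.258 for double KO. Ncapg to Ncapg2 was 0.807 ± 0.0184, 0.828 ± 0.00896, 0.631 ± 0.0367 and 0.764 ± 0.0471 in the same order. For both ratios the Recql KO libraries lay below all others. Ncaph to Ncaph2 went otherwise, at 0.388 ± 0.0105, 0.257 ± 0.0406, 0.325 ± 0.0557 and 0.362 ± 0.0934, lowest on average in Blm KO and with the Recql KO libraries overlapping those of each other genotype. Of 11 ratios between partner genes that were computed, 5 had all Recql KO libraries below the other 9, and 6 did not. The 5 were these 2, Smc4 to Smc2, Espl1 to Pttg1 and Rad21 to Smc3. Smc4, Ncapd2, Espl1 and Rad21 were called lower and Pttg1 higher in Recql KO, so these ratios in part restate those calls. How often ratios of other gene pairs separate in this way was not counted. Single genes did not overlap between Recql KO and WT in 49.3% of all genes tested.

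**Figure D3:**
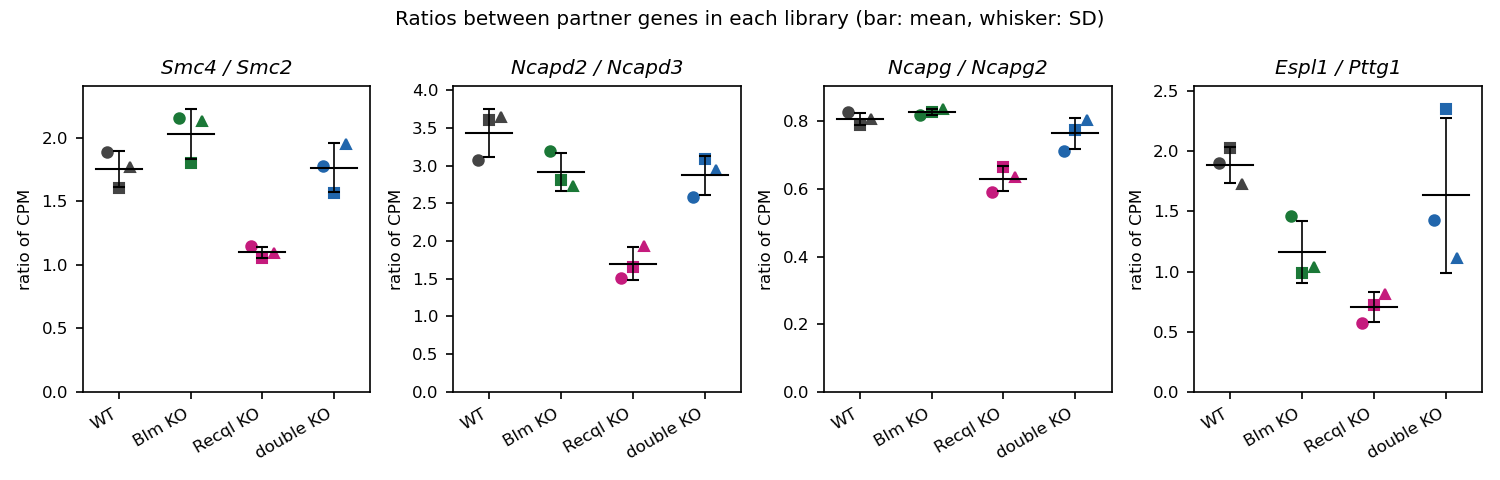
Ratio of the CPM of partner genes in each library (y axis from 0, no unit) by genotype (x axis), with the mean as a bar and the SD as whiskers. The 4 were picked from 11 ratios after their values were seen, and Smc4, Ncapd2, Espl1 and Pttg1 were each called in Recql KO. In the 3 Recql KO libraries all 4 lie below every library of the other genotypes, with Smc4 to Smc2 near 1.10 beside 1.76 in WT.

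The promoters of the called genes Espl1 and Ncapd2 are shown because both hold letters that match the CHR and CCAAT elements. These elements are known from promoters of late cell cycle genes. The other called genes with a promoter had no CHR match, and some genes that were not called had both matches, as given below. The sequences are from RefSeq on GRCm38.p6. The Espl1 window, chr15:102296043-102296292 on the + strand, is 250 bases up to the RefSeq start, of which 27 lie in the longer GENCODE gene model. The Ncapd2 window, chr6:125191702-125191836 on the - strand, is 135 bases that end before the GENCODE gene model. Capitals mark CHR (TTTGAA) and CCAAT (here as ATTGG on the strand shown):
Espl1: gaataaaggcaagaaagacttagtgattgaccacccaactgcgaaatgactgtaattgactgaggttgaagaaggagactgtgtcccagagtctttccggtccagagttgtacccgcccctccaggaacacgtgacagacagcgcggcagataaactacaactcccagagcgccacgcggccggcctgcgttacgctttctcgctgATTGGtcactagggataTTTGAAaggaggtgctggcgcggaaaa
Ncapd2: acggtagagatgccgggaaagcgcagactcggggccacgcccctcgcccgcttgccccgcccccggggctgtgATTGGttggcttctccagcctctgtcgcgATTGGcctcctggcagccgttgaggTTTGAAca

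Promoters were found for 27 of the 36 genes, not for Rad21, Stag2, Nipbl, Esco1, Esco2, Dscc1, Ddx11, Smc4 and Nsmce2. In the 250 bases before the start, on either strand, TTTGAA was in 11 of the 30 promoters of these genes (36.7%) and in 16% of all 32851 promoters. CCAAT was also in 11 of the 30 (36.7%), beside 33.8% of all, and an E2F motif in 8 (26.7%) beside 6.69%. The E2F motif was searched as GCGGGAA, with GCGCCAA and also GCGCGAA as variants. An E2F match can overlap a CCAAT match where ATTGG runs on into TTGGCGC. Cdca5, Espl1, Smc2, Ncapg, Ncapd2, Ncapg2 and Ncapd3 were among those with TTTGAA, as were Hdac8, Ctcf, Pds5b and Smc6. The called genes Pttg1, Ncaph2, Nsmce1 and Ndnl2 had a promoter without TTTGAA. Pds5b, Hdac8, Smc2 and Ncapg, not called by edgeR in the fit of all libraries, held both TTTGAA and CCAAT. The Ncapd3 match lay only in the promoter further downstream. The start of that promoter was not found in GENCODE transcripts, nor were those of Smc2 and Ctcf. The motifs were chosen after the expression values were seen, and a match of letters does not show that a factor binds.

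In the SMC5/6 complex, Nsmce1, its ubiquitin ligase subunit, and Ndnl2, which encodes the NSMCE3 partner of that subunit, fell in Recql KO by small amounts. Nsmce1 was at 20.2, 20.7 and 20.3 CPM over the WT libraries, 20.7, 20.1 and 20.1 in those of Blm KO, 17.6, 17.4 and 17.0 in those of Recql KO, and 18.0, 18.5 and 19.2 in those of double KO. Ndnl2 was at 26.5, 24.5 and 23.5 CPM over the WT libraries, 24.2, 26.1 and 25.5 in those of Blm KO, 20.5, 20.1 and 21.1 in those of Recql KO, and 23.2, 23.6 and 25.8 in those of double KO. For both genes the Recql KO libraries lay below all others. The log2 fold changes were -0.23 for Nsmce1 (SE 0.06, adjusted p 0.0203) and -0.27 for Ndnl2 (SE 0.08, adjusted p 0.0207). Nsmce1 kept its call in 1 of the 6 fits without a WT or Recql KO library and Ndnl2 in 3 of 6, with adjusted p up to 0.0705 and 0.0811. Both genes lie on chromosome 7 with Blm, Ndnl2 at 15.58 Mb and Nsmce1 at 44.93 Mb from it. The share of genes called near Blm was not counted.

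The other SMC5/6 genes gave no call. Smc5 was at 102 ± 17.5 CPM for WT, 74.6 ± 4.66 for Blm KO, 105 ± 7.34 for Recql KO and 96.8 ± 23.3 for double KO, with an adjusted p of 0.176 for Blm KO against WT. Its partner Smc6 was at 85.95% to 91.9% of WT in the KO genotypes. Nsmce2, the SUMO ligase subunit that SUMOylates proteins at damaged DNA, was at 83.1% of WT in Blm KO (adjusted p 0.229).

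Between double KO and the libraries labelled Recql KO, 6 of the 36 genes were called, 5 higher and 1 lower in double KO, where 24.7% of all genes tested were called (13.2% higher and 11.6% lower). Smc4 was 0.65 higher on the log2 scale (SE 0.17, adjusted p 0.0185), Ncapd2 0.62 (adjusted p 0.0344), Espl1 0.68 (adjusted p 0.0431), Ndnl2 0.24 (adjusted p 0.044) and Rad21 0.32 (adjusted p 0.048), and Pttg1 was lower by -0.48 (adjusted p 0.0293). This comparison and that of Recql KO with WT share the Recql KO libraries. The count of calls among the 36 rested on few libraries. It was 0 without Recql KO replicate 1, Recql KO replicate 2 or double KO replicate 2. In those fits 14.9%, 14.3% and 23.4% of all genes tested were called. The count was 2 without Blm KO replicate 3 or double KO replicate 1, beside 20.8% and 20.4% of all genes. Without Recql KO replicate 3 it was 3, beside 18.4%.

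Between double KO and Blm KO, no gene of the 36 was called by edgeR, where 1.96% of all genes tested were called. At an unadjusted p under 0.05 there were 6, against 23.3% of all genes: Smc2, Ncapg2, Ncapd3, Sgol1 and Smc5 were higher (11.9% of all genes) and Hdac8 was lower in double KO (11.4%). DESeq2 called Hdac8, lower by -0.37 (adjusted p 0.0361). Without double KO replicate 3, edgeR called 3 genes higher in double KO, Smc2, Ncapg2 and Ncapd3. The 7 condensin genes other than Ncaph2 had log2 fold changes above 0, up to 0.61 for Ncapg2 (95% interval 0.12 to 1.10, adjusted p 0.148).

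The interaction asks whether the Recql KO label goes with another change in cells without Blm (double KO against Blm KO) than in cells with Blm (Recql KO against WT). It was called for 4 of the 36 genes (11.1%), all above 0, where 10.4% of all genes tested were called (5.86% above 0). Counting both directions, the share among the 36 was close to that of all genes. The values on the log2 scale were 1.19 for Smc4 (SE 0.24, adjusted p 0.0146), 1.25 for Ncapd2 (SE 0.27, adjusted p 0.0186), 0.61 for Rad21 (SE 0.15, adjusted p 0.028) and 1.26 for Espl1 (SE 0.31, adjusted p 0.029). For these genes the mean of each single KO genotype was below WT, by a called amount in Recql KO alone, and the mean of double KO was nearer to WT than either. A value above 0 means that the double KO level lay above the sum of both single changes on the log2 scale. Of the 36 genes 30 lay above 0, with a median of 0.29 beside 0.01 over all genes tested, and 11 had an unadjusted p under 0.05 against 28.3% of all genes. The call held for Smc4 without each of the 12 libraries in turn, for Ncapd2 in 11 of 12 fits (not without Blm KO replicate 3), for Espl1 in 5 and for Rad21 in 4. Once the Y-linked level was a covariate, 1 of the 36 genes, Smc4, was called, beside 5.76% of all genes tested. In the fit of Y-high libraries alone 0 were, beside 0.0328%, and DESeq2 called 8, beside 17.7%. In the same way 11 of the 16 proliferation markers had a called interaction above 0.

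The median SD of log2 CPM over the 36 genes was 0.183 in double KO beside 0.16 in WT, 0.132 in Blm KO and 0.104 in Recql KO. Over all genes tested it was 0.183, 0.172, 0.145 and 0.125 in the same order. Double KO replicate 2 was the highest of its genotype for 28 of the 36 genes and replicate 3 the lowest for 25. Such ranks, here and below, were not counted over all genes, so they may not be particular to the 36. Relative to the WT mean, the median over the 36 genes was -0.19, 0.05 and -0.28 on the log2 scale in double KO replicates 1, 2 and 3, and near 0 over all genes in each. The proliferation marker sum had the same order of libraries, and double KO replicate 2 was also the only double KO library with high Y-linked transcripts. In Blm KO, replicate 1 was the highest for 29 of the 36 genes, and it too had the highest proliferation sum and the high Y-linked level of its genotype. In Recql KO, replicate 1 had the high Y-linked level but was the lowest for 21 genes, and its proliferation sum was the lowest of the genotype. Without double KO replicate 2, the comparison of double KO with WT still had no call, but 12 of the 36 genes had an unadjusted p under 0.05, beside 12.3% of all genes tested. Blm KO against WT then had 5 calls (Smc2, Smc4, Ncapg, Ncapg2 and Sgol1), beside 3.8% of all genes tested.

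The intervals show what the double KO comparison could leave undetected. For Espl1 the 95% interval of double KO against WT ran from -0.63 to 0.32, for Ncapd2 from -0.75 to 0.08, for Smc4 from -0.61 to 0.12 and for Rad21 from -0.44 to 0.02. A drop of the size seen in Recql KO lay outside the interval for Smc4, Ncapd2, Rad21 and Espl1. The drop seen in Blm KO lay inside the interval for each of these 4 genes. Among all 36, the intervals reached furthest down for Dscc1, to -0.93, and furthest up for Pttg1, to 0.40.

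**Figure D4:**
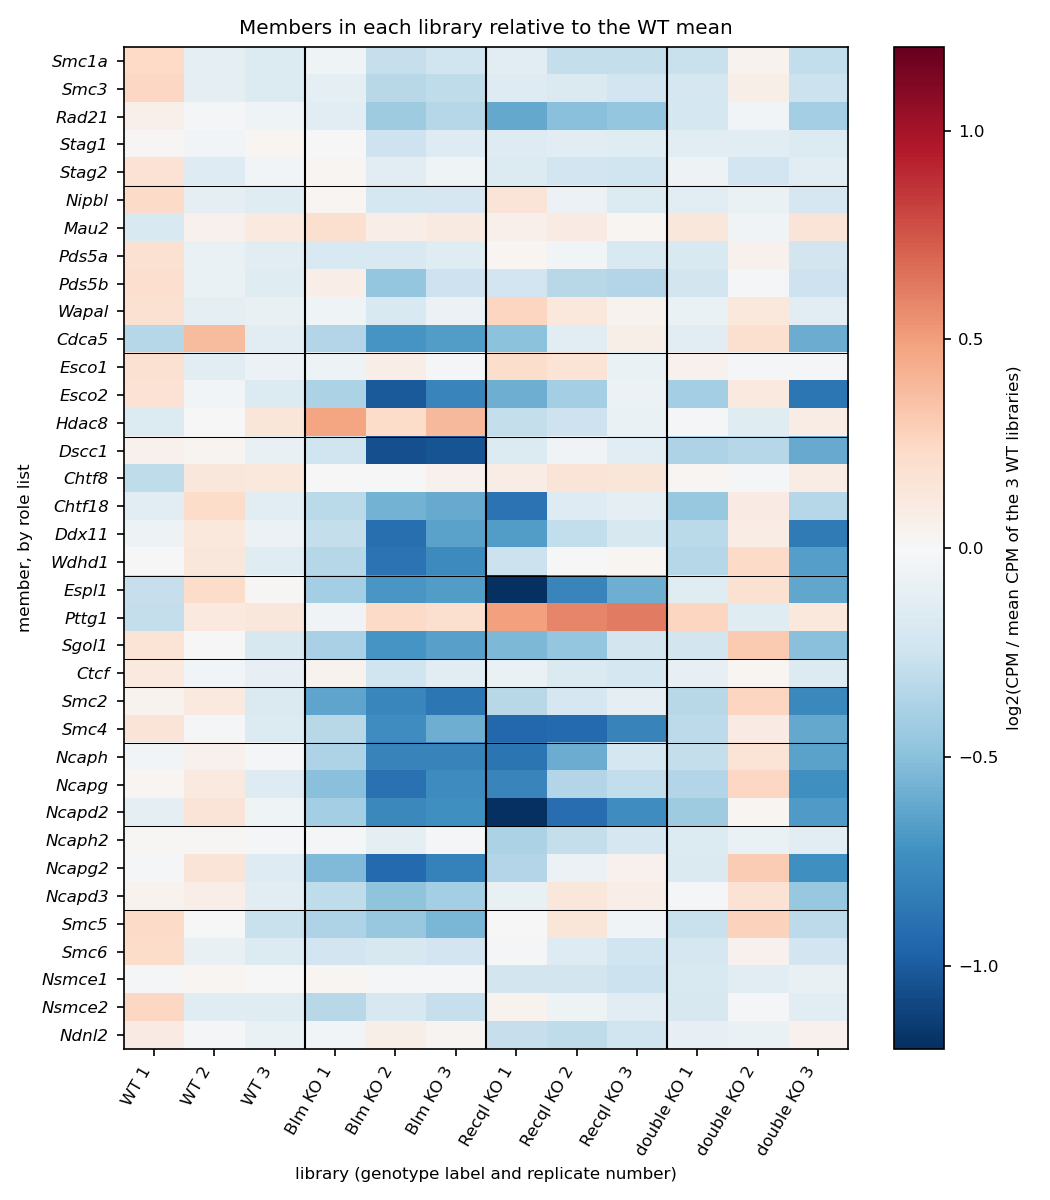
Level of each of the 36 genes (rows, grouped by role) in each library (columns) as log2 of its CPM over the mean of the 3 WT libraries, blue for lower and red for higher. Blm KO replicates 2 and 3 and double KO replicate 3 are blue over most condensin and fork genes, double KO replicate 2 is near WT, and Pttg1 is red in Recql KO.

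Per kilobase of exon, the WT level of subunits of 1 complex differed widely. In cohesin, Rad21 was at 62.2 CPM per kb beside 36.2 for Smc1a, 28.2 for Smc3, 32.9 for Stag2 and 21.1 for Stag1. In condensin, Smc4 was at 53.3 and Smc2 at 24.3 CPM per kb, Ncapd2 was at 29.0 beside 7.11 for its condensin II counterpart Ncapd3, whereas the kleisin Ncaph was at 14.7 beside 30.7 for Ncaph2. In Recql KO the level of Smc4 was 28.7 CPM per kb beside 20.9 for Smc2. In the SMC5/6 complex, Smc6 was at 23.0 and Smc5 at 17.4 CPM per kb in WT, Nsmce1 at 18.2, Nsmce2 at 9.80 and Ndnl2 at 4.18. Lengths are the union of the exons in the basic transcript set of GENCODE, so a gene with a long and seldom used exon reads too low.

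Meiotic cohesin genes were low. Rec8, Stag3 and Smc1b, germline subunits of the ring, never passed 0.717, 1.83 and 0.246 CPM in a library. Rad21l had 3 counts in all libraries together and was not tested, and none of the other 3 was called.

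Of 34 further genes of the same pathways, 10 were called between Recql KO and WT, 9 lower and 1 higher, beside 29.9% of all genes tested, and 0 in Blm KO and 0 in double KO by edgeR. Cdc20, the activator of the anaphase-promoting complex that releases separase, was lower by -1.16 on the log2 scale (adjusted p 0.00173). The mitotic kinase gene Plk1 was lower by -1.07 (adjusted p 0.00489), the spindle checkpoint gene Bub1b by -1.12 (adjusted p 0.00534) and the clamp loader subunit Rfc4 by -0.68 (adjusted p 0.00707). In the list of 13 genes for centromere and anaphase control, 6 fell in Recql KO, beside 15.6% of all genes tested, and the median log2 fold change was -0.65 there, -0.73 in Blm KO and -0.18 in double KO. Rad50, a relative of the SMC proteins in the MRE11 complex, was the gene that rose, by 0.42 (adjusted p 0.0337). The interaction was called for 10 of the 34, all above 0, beside 5.86% of all genes tested. These lists were chosen with earlier results of these data known.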

How the data were processed

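Polyadenylated RNA was measured in 12 libraries of primary mouse embryonic fibroblasts, 3 for each of 4 genotypes, made with a KAPA stranded kit per the labels' protocols. Per the submitters' processing notes, the authors used Bowtie2 2.1.0 and RSEM 1.2.15 with mm10. The authors deposited RSEM expected counts per gene, in which 17.4% to 20.2% of the values of a library were not whole. Which annotation, strand setting and read filters were used is not given in the sources used here.

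After rounding to whole numbers, genes were tested in R 4.3.3 with edgeR 4.0.16 (filterByExpr, TMM, factors 0.96 to 1.028, robust quasi-likelihood F test, 1 mean per genotype in a fit of all 12 libraries, 8 residual degrees of freedom, common biological coefficient of variation 0.209), with Benjamini-Hochberg adjustment over 14876 genes. The 95% intervals are from that fit. The test of Recql KO against WT was also run on simulated counts, with less spread between libraries than in these data. The fit of all 12 libraries and the interaction were not simulated. Whether replicate numbers pair libraries was checked by correlating deviations from the genotype means: the 3 same-number pairs of WT and Blm KO were at 0.117 to 0.246, all over 0.1, and no other 2 genotypes had all 3 over 0.1. Positions and exon lengths are from GENCODE M21 (mm10), in which Chtf8 was not matched. Per-library values were printed for genes called in any comparison and, for a role list without a call, for the gene with the smallest unadjusted p. Ratios and promoter motifs were added after the values were seen. The genes and lists were chosen with earlier results of these data known.

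Alternatives were RLE scaling, DESeq2 1.42.0, no filter, a filter that kept genes over 1 CPM in 3 libraries, the compared groups only, the replicate number as a block, the Y-linked level as a covariate, only libraries high in Y-linked transcripts, and leaving out each library in turn.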

Additional observations from a re-analysis of the deposited data

Results flagged for a closer look

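In 4 genes the effect of the Recql KO label differed between cells with and without Blm by a test of the difference itself, the interaction in edgeR's quasi-likelihood fit. The interaction was called for 10.4% of all genes tested and for 4 of the 36 described here (11.1%), a share close to that of all genes. On the log2 scale it was 0.61 for Rad21, 1.26 for Espl1, 1.19 for Smc4 and 1.25 for Ncapd2. The double KO mean CPM of these genes was 86.6%, 89.6%, 84.4% and 79.3% of WT, beside 81.4%, 66.7%, 68.7% and 64.8% in Blm KO and 69.5%, 55.9%, 53.9% and 51.5% in the libraries labelled Recql KO. Within the libraries high in Y-linked transcripts, of which each KO genotype has 1, none of the 4 was called (adjusted p from 0.0934 to 0.247), at 0.70 for Rad21, 1.78 for Espl1, 1.36 for Smc4 and 1.68 for Ncapd2 on the log2 scale, and the lone libraries are there assumed to vary like the WT libraries. When each of the 12 libraries was left out in turn, the call held in 12 fits for Smc4, 11 for Ncapd2, 5 for Espl1 and 4 for Rad21.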

How the results depend on the processing

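For Blm KO against WT the count of called genes was 0, but 6 with DESeq2 and 1 with the compared groups only, and 0 to 5 when each library was left out in turn. For Recql KO against WT it was 8, but 5 in a fit of just the libraries with high Y-linked transcripts (Y-high), and 5 to 10 when leaving out 1 library, with 5 without Recql KO replicate 1 or 2. For double KO against WT it was 0 in each setting run. For double KO against Blm KO it was 0, but 1 with DESeq2, and 0 to 3 when leaving out 1 library. For double KO against Recql KO it was 6, but 3 with no filter on low counts, 2 with the compared groups only, 2 in a fit of just the Y-high libraries, and 0 to 5 when leaving out 1 library. For the interaction it was 4, but 8 with DESeq2, 1 with the Y-linked level as covariate, 0 in a fit of just the Y-high libraries, and 1 to 9 when leaving out 1 library, with 1 without Blm KO replicate 3 and 9 without double KO replicate 3. In the correlation check, all 3 same-number pairs of WT with Blm KO were over 0.1, which held for no other 2 genotypes (8 of 18 same-number pairs over 0.1, from -0.129 to 0.335). With so few libraries a genotype, the check cannot establish that replicate numbers pair libraries. With the replicate block the counts were 0, 9, 0, 0, 3 and 4 in the order above, so it changed no call for Blm KO against WT. Shares over all genes tested also moved. For Blm KO against WT it was 0.753% and, with DESeq2, 6.49%. In Recql KO against WT the 29.9% became 19.1% and 17.9% without Recql KO replicate 1 and 2. The 24.7% for double KO against Recql KO became 15.8% with no filter and 21.8% with the compared groups only. For the interaction 10.4% became 17.7% with DESeq2 and 5.76% with the Y-linked covariate. It was 3.64% without Blm KO replicate 3 and 9.69% without double KO replicate 3. Fits with fewer libraries have fewer degrees of freedom, and for the other changes the cause was not tested. Smc4 and Ncapd2 kept their Recql KO calls in all 8 other settings and all 6 fits without a WT or Recql KO library, and Rad21, Pttg1 and Ncaph2 lost theirs only in the fit of Y-high libraries. None of the 18 called gene and comparison pairs changed direction. Of the 198 pairs not called, 81 changed sign in at least 1 setting, so their direction is not settled at this depth and number of libraries.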
